A study of Mus musculus with 9 samples.

Results

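The serpin family was taken as every row of the deposited expression table whose symbol is Serpin followed by a clade letter from a to i and a number, which gave 60 of 25965 rows. These were 23 Serpina rows, 26 Serpinb rows and 11 rows of the other clades, and all 60 matched a gene of GENCODE release vM21 by symbol and place. Serpins are a superfamily of proteins that share one fold, and most of them inhibit proteases. An inhibitory serpin offers its exposed reactive loop as bait; the protease cuts the loop, the loop swings into the body of the serpin and drags the protease along, and both are trapped in a covalent complex. Clade letters group the family: clade A proteins are secreted and largely made by the liver, clade B proteins mostly stay inside cells and protect them from stray proteases, and the remaining clades include inhibitors of clotting, fibrinolysis and complement and some members that inhibit nothing. In rodents clades A and B have expanded into tandem arrays, and in brain the family is known for neuroserpin and protease nexin, which hold plasminogen activators and thrombin in check, and for Serpina3n, a marker of reactive astrocytes.

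The libraries came from mouse neural stem cells (C57BL/6), self-renewing cells grown from the brains of E14.5 embryos that carried floxed alleles of Smchd1, a chromatin protein needed to silence the inactive X chromosome and several gene clusters. Deleted cultures (Smchd1 del/del) had been transduced with retroviral Cre recombinase and puromycin resistance, put under puromycin from 24 h and harvested on day 7. The fl/fl controls were the untransduced parts of the same lines, so deletion cannot be told apart from retrovirus and puromycin. There were 4 del/del libraries (female lines 1, 2 and 3 and male line 5) and 5 fl/fl libraries (the same lines and male line 7); the series' design text calls the cultures female and the controls del/fl, and the sample labels were followed here.

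The reads behind the table, in M (1e+06) reads, came to 74.0 to 105.1 M in del/del and 24.1 to 116.6 M in fl/fl libraries, and 34.8% to 53.3% of them fell in listed rows. Smchd1 stood at 5.04 to 5.36 log2 RPM (reads per M reads) in the 4 del/del libraries, below the 6.16 to 6.81 in the 5 fl/fl libraries. Female fl/fl 2 was the shallowest library and stood apart from the others. Neural stem cell markers were present in both groups, with 12 of 12 past the filter described next, a median log2 fold change of -0.11 and 0 called by limma (0 at an unadjusted p under 0.05, and 0 by voom on recovered reads). Of 10 microglia and leukocyte markers Trem2 and C1qa had no read in any library. Tyrobp and C1qb had 3 reads each, Aif1 13, Ptprc 34 and Itgam 333. The 3 past the filter were Cx3cr1 with 85206 reads, Csf1r with 4784 and P2ry12 with 4610. The list summed to 106 to 118 RPM in del/del and 93.7 to 127 RPM in fl/fl libraries, most of it from the Cx3cr1 row. That row runs from 119901616 to 120068283 on chromosome 9. Its reads were counted whatever the strand, so they may belong in part to other genes. Of the list limma called 0 (0 at an unadjusted p under 0.05, and 0 by voom). Levels are per bulk culture, so fewer cells of a type and less RNA per cell cannot be told apart.

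Few serpins were expressed in these cells. A row counted as expressed where it reached a log2 level of 0, or 1 RPM, in at least 3 libraries, and 9 of the 60 did (15.0%), against 54.1% of all rows. Among the tandem arrays 4 of 48 rows were expressed (8.33%), and among the 11 single members 5 were (45.5%). Of the 51 others, 16 had no read in any library, 27 had up to 100 reads over the 9 libraries together, and 8 had more than 100. A count of 0 in one library allows up to 3 reads there, counting error only, so a row without reads was not detectable at this depth rather than shown to be absent.

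The Serpina array lies on chromosome 12 between 103616675 and 104414329 (mm10), with 22 rows in 798 kb, and its last row alone was expressed. That row, Serpina3n, held 93.2% of the 2673 reads of the array. Its other rows in order began with Serpina10, the inhibitor that works with protein Z in clotting (11 reads), and Serpina6, which makes corticosteroid-binding globulin (no read). The rows of alpha1-antitrypsin, the liver's elastase inhibitor, were Serpina1b (38 reads), Serpina1d (5), Serpina1a (6) and Serpina1c (11), with no read in Serpina1f and Serpina1e. Serpina11, Serpina12, Serpina3a, Serpina3b and Serpina3f had 1 to 7 reads each, and Serpina9 and Serpina5, the protein C inhibitor, had none. Within the Serpina3 group, which expanded in rodents from one antichymotrypsin gene, Serpina3g had 33 reads, Serpina3i 10, Serpina3k 8 and Serpina3m 40, while Serpina3c and Serpina3j had none. Serpina7, the thyroxine-binding globulin gene, lies apart on the X chromosome and had no read.

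The Serpinb array of chromosome 1 (106861173 to 107608909, 11 rows) was expressed at its ends. Serpinb5, known as maspin, opens it and Serpinb8 closes it with 87.1% of its 17259 reads. Between them Serpinb11 had 611 reads, Serpinb3b 27, Serpinb2 13, Serpinb12 8, Serpinb7 6 and Serpinb13 1, and Serpinb3a, Serpinb3d and Serpinb3c had none. The second Serpinb array lies on chromosome 13 (32842092 to 34002794, 15 rows). There Serpinb6a, the last row, held 96.7% of the 20833 reads. Serpinb1a, an inhibitor of neutrophil elastase, had 378 reads and Serpinb9, the inhibitor of granzyme B, 117. Serpinb1c had 91 reads, Serpinb6c 63, Serpinb1b 17, and Serpinb6b, Serpinb9b, Serpinb9e and Serpinb6e had 2 to 6, while Serpinb9c, Serpinb9d, Serpinb9f, Serpinb9g and Serpinb6d had none.

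**Figure D1:**
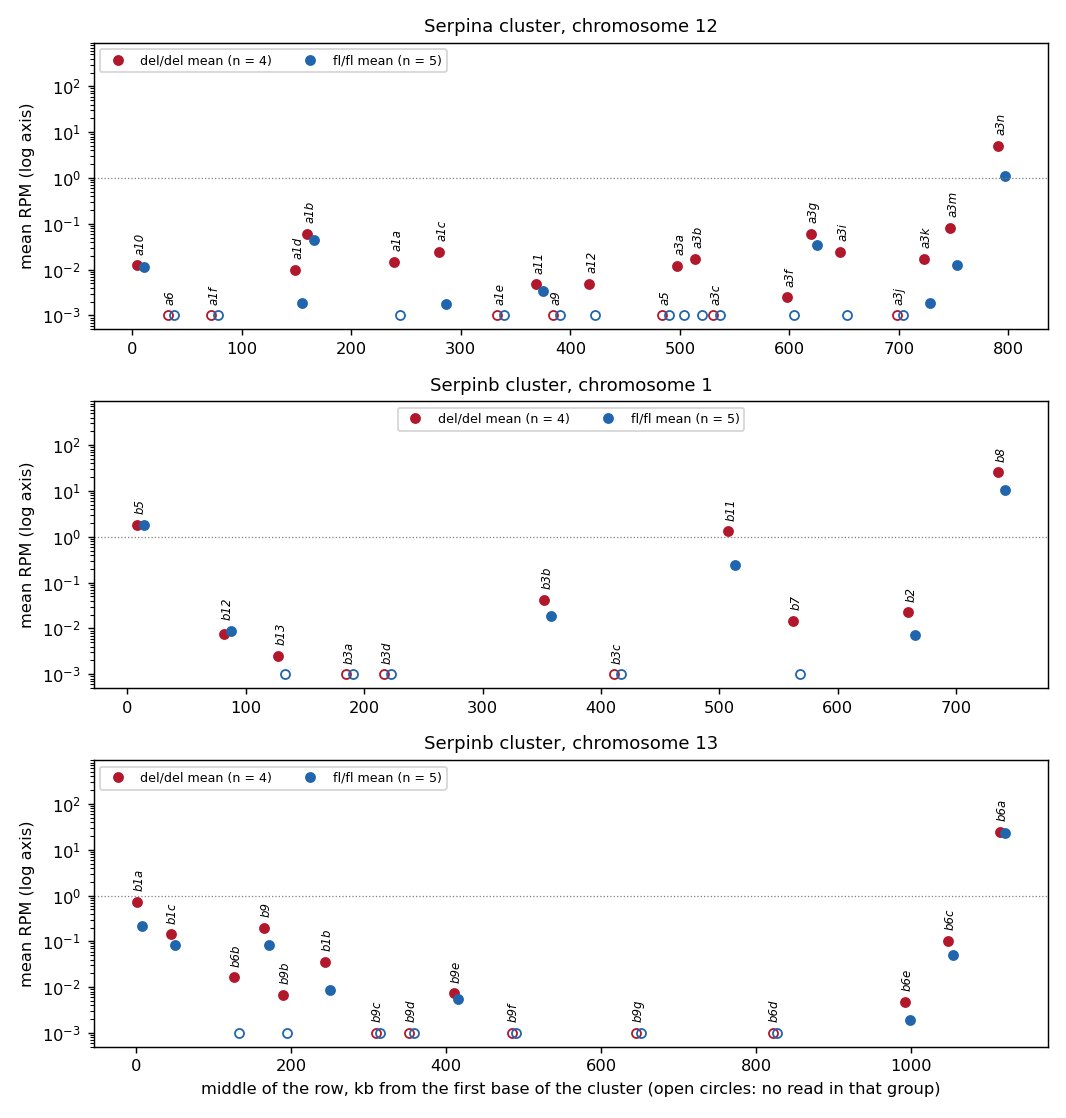
Mean RPM of every row of the 3 tandem arrays (log axis) against the position of the row in kb from the start of its array, with del/del means in red left of fl/fl means in blue and the dotted line at 1 RPM. Open circles at the foot of each panel are groups with no read; in each array most rows lie below 0.1 RPM, and the rows above 1 RPM sit at the ends except Serpinb11.

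Among the single members, which are scattered over several chromosomes, Serpine2 and Serpinh1 carried most of the family's RNA. Together they held 69.0% of the 182093 reads in serpin rows. Per kb of exon, the measure used to set genes side by side, Serpinh1 stood at 28.1 RPM in del/del and 31.6 RPM in fl/fl, and Serpine2 at 9.97 RPM in del/del and 11.9 RPM in fl/fl. Serpinb8 followed in del/del at 5.39 RPM per kb, against 2.15 RPM per kb in fl/fl. The expressed rows at the low end were Serpini1 (0.528 RPM per kb in del/del and 0.591 in fl/fl), Serpinb5 (0.665 in del/del and 0.651 in fl/fl) and, in fl/fl alone, Serpina3n (2.45 in del/del and 0.526 in fl/fl). These levels count reads over whole gene spans, introns included, so a gene with long introns stands higher than its exons alone would place it.

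Promoter sequence is shown for the members on which the comparison turns and for one array neighbour without reads. Of the Serpina3 windows compared with that of Serpina3n, that of Serpina3c was nearest: their 300-base windows around the RefSeq start (250 bases before it and 50 after it; GRCm38.p6) matched at 275 of 294 aligned bases (93.5%), whereas those of the other Serpina3 genes that have one matched that of Serpina3n at 60.7% to 77.5%. Serpina3c had no read in any library. Capitals in this pair mark bases that differ or have no partner, Serpina3n on the plus strand at chr12:104406458-104406757 and Serpina3c on the minus strand at chr12:104153823-104154122.
Serpina3n: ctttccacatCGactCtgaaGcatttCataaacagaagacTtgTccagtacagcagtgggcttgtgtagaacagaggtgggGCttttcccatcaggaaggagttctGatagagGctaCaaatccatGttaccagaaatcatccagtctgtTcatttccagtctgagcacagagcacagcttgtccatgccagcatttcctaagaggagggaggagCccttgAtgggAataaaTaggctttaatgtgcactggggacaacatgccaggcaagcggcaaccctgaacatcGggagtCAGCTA
Serpina3c: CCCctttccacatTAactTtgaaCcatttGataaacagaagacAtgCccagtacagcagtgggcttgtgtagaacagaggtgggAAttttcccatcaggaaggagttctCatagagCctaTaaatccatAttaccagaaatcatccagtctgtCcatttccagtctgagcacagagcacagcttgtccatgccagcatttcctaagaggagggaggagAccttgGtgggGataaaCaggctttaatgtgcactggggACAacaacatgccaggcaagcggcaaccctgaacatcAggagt

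The windows of Serpinb8 (chr1:107589756-107590055) and Serpinb11 (chr1:107362064-107362363), both on the plus strand of chromosome 1, are the other pair. Each holds 2 copies of TGANTCA, in capitals below. This is a loose form of the AP-1 motif, whose usual centre base is C or G. Both copies in Serpinb8 have G there, while those in Serpinb11 have T and A.
Serpinb8: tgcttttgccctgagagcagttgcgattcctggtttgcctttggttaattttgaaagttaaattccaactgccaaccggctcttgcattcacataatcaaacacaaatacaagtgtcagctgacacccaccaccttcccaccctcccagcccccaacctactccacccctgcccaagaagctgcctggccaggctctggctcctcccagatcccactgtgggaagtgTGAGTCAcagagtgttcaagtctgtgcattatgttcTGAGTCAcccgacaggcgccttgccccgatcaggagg
Serpinb11: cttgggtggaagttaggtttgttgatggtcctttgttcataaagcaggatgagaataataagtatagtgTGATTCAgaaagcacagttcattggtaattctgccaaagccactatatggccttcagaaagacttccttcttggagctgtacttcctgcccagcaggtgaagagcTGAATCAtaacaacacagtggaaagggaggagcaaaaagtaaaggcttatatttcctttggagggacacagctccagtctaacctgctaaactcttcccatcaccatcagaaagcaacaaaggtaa

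Motifs were searched on both strands in the RefSeq windows of 51 members that have one. TGANTCA occurs in 7.81% of all 32851 windows. Among the serpins it is not particular to Serpinb8 and Serpinb11. In the same array windows of Serpinb5, which did not pass, and of Serpinb12, Serpinb2 and Serpinb7 hold it too. So do those of Serpina1a, Serpina1b, Serpina1c and Serpina1d, which had few reads. The interferon-stimulated response element, searched as GAAA, any 2 bases and GAAA, occurs in 3.44% and TTCNNNGAA, the STAT motif GAS, in 8.30%. GGGANTTCC, an NF-kB motif, occurs in 1.68% and TATAAA in 13.6%. The window of Serpina3n holds none of the 5 patterns, and those of Serpinb8 and Serpinb11 hold only TGANTCA. A match describes these letters and shows no binding, and a window without one says nothing of the factor. CpG counts ran higher but overlapped: the 9 windows of the 8 expressed genes that have one held 3 to 41 (median 8), the 51 windows of 43 other members 0 to 11 (median 3), and all windows a median of 7. Serpine2 had 41, Serpinh1 16 and Serpini1 15, while Serpina3n had 3, Serpinb8 5 and Serpinb11 none. Of the other expressed array rows, Serpinb6a had 25 in one window and 5 in another, and Serpinb5 had 7.

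Of the 9 expressed rows 2 rose in del/del cultures, Serpina3n and Serpinb8, each the most abundant row of its array. Over both sexes limma called these 2 of 9 at an adjusted p under 0.05 and 0 fell, where 1.55% of all 14044 rows tested were called and 1.45% rose. Both belong to tandem arrays: of the 4 clustered rows 2 rose, with a median log2 fold change of 0.74, and of the 5 single rows 0 passed (1 at an unadjusted p under 0.05, and 0 by voom), with a median of -0.18. The median over all 9 was -0.02 and over all rows tested -0.00. The split of calls moved with the scaling, since Serpine3 fell after median centring (2 rose and 1 fell, where 1.27% of all rows were called) and after quantile normalization (1 rose and 1 fell, where 0.741% were called).

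**Figure D2:**
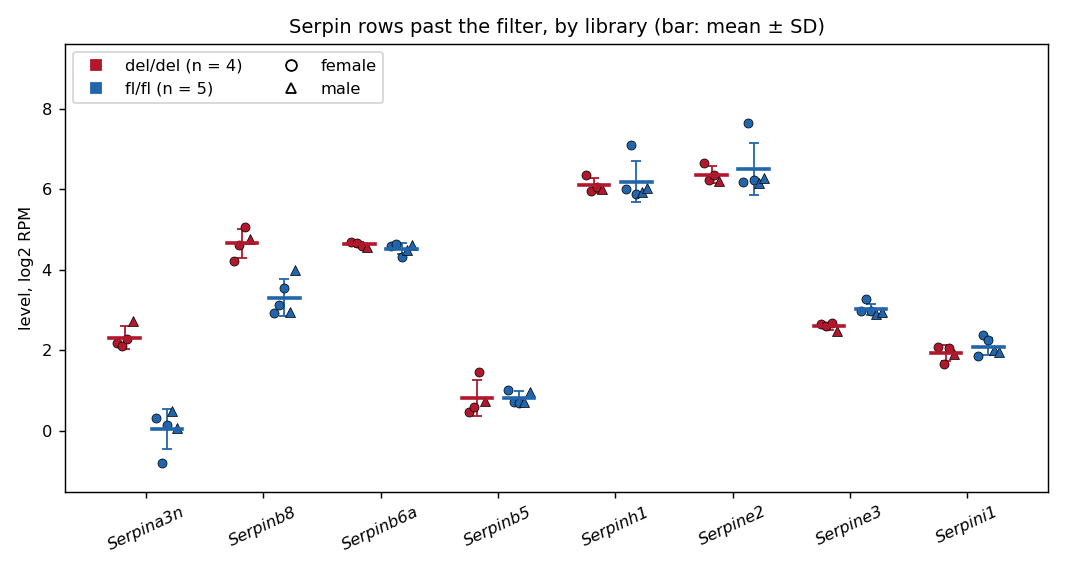
Level in log2 RPM of 8 expressed serpin rows in each library, del/del (red, n = 4) left of fl/fl (blue, n = 5), circles for female and triangles for male lines, with mean and SD. The groups do not overlap for Serpina3n and Serpinb8, which were higher in del/del, nor for Serpine3, which was lower in del/del; the high fl/fl points of Serpine2 and Serpinh1 are both female fl/fl 2.

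Serpina3n (chromosome 12, 104406729 to 104414329, plus strand, ENSMUSG00000021091.8) makes a secreted antichymotrypsin that is induced in reactive astrocytes and in the acute phase response, and in mouse inhibits granzyme B. Its level was 2.18, 2.10 and 2.28 log2 RPM in female del/del 1, 2 and 3 and 2.72 in male del/del 5, against 0.33, -0.78 and 0.15 in female fl/fl 1, 2 and 3 and 0.51 and 0.08 in male fl/fl 5 and 7. Every del/del library lay above every fl/fl library, and the highest value of all was that of the male del/del culture. The del/del mean was 2.32 ± 0.275 (SD, n = 4) and the fl/fl mean 0.06 ± 0.499 (SD, n = 5), from 336 to 671 reads per del/del library and 14 to 149 reads per fl/fl library. Serpina3n rose 5.03-fold, a log2 fold change of 2.33 (SE 0.242, limma adjusted p = 0.00447). Within lines the difference was 1.85, 2.89 and 2.12 in female lines 1, 2 and 3 and 2.21 in male line 5, while the median difference of all rows tested ran from -0.25 to 0.22. Without the outlying female fl/fl 2 the log2 fold change was 2.12 for Serpina3n and 1.35 for Serpinb8, and both were called. Leaving out male del/del 5 ended the limma call (adjusted p = 0.0723, the highest over the alternatives, which began at 3.09e-05), and 6.90% of the 50-base words of its transcripts occur in other genes.

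Serpinb8 (chromosome 1, 107590006 to 107608909, plus strand, ENSMUSG00000026315.13) makes an intracellular serpin whose human form is known to inhibit the proprotein convertase furin. It stood at 4.21, 4.61 and 5.07 log2 RPM in female del/del 1, 2 and 3 and 4.76 in male del/del 5, against 2.94, 3.12 and 3.54 in female fl/fl 1, 2 and 3 and 2.96 and 3.99 in male fl/fl 5 and 7. The groups did not overlap, though the gap between the lowest del/del library, female 1, and the highest fl/fl library, male 7, was smaller than the SD of either group. Serpinb8 rose 2.61-fold, a log2 fold change of 1.38 (SE 0.241, limma adjusted p = 0.0231), with a del/del mean of 4.66 ± 0.357 (SD, n = 4) and an fl/fl mean of 3.31 ± 0.452 (SD, n = 5). Within lines it differed by 1.27, 1.49 and 1.52 in female lines 1, 2 and 3 and by 1.80 in male line 5. The call ended after quantile normalization (limma adjusted p = 0.0506) and on leaving out female del/del 1, 2 or 3, male del/del 5 or female fl/fl 1 (0.0526, 0.0830, 0.0559, 0.159 and 0.0506), within a range of 0.000358 to 0.159 over all alternatives. Furin itself, on the partner list below, had a log2 fold change of 0.15 (limma adjusted p = 0.946).

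Expressed rows whose groups do not overlap were 3 of 9, where 6.52% of all rows tested had no overlap. The other one was Serpine3 (chromosome 14, 62663667 to 62692243), whose protein is little studied. It stood at 2.65, 2.59 and 2.68 log2 RPM in female del/del 1, 2 and 3 and 2.48 in male del/del 5, against 2.99, 3.27 and 2.97 in female fl/fl 1, 2 and 3 and 2.90 and 2.96 in male fl/fl 5 and 7. Every del/del library lay under every fl/fl library, and the log2 fold change of -0.44 (SE 0.101) missed the threshold (limma adjusted p = 0.0714, 0.00366 to 0.398 over the alternatives). It passed after median centring (0.0385), quantile normalization (0.0263) and with array weights (0.00366). The row shares 15914 bases of its 28.6 kb with Ints6 on the opposite strand, a gene with 43547 reads against 6000 in Serpine3, and reads were counted regardless of strand; Ints6 had a log2 fold change of -0.22 (limma adjusted p = 0.803), so the value of Serpine3 belongs to both genes in unknown parts.

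The other 2 expressed Serpinb rows did not pass. Serpinb6a, whose human form inhibits cathepsin G, stood at 4.69, 4.66, 4.60 and 4.57 log2 RPM in del/del (female 1, 2 and 3, male 5) and at 4.58, 4.63, 4.31, 4.50 and 4.62 in fl/fl (female 1, 2 and 3, male 5 and 7). These values overlap, with a log2 fold change of 0.10 (SE 0.100, limma adjusted p = 0.997). Nqo2 and a smaller gene lie inside its row and account for 67.8% of its 20150 reads; with those reads taken away the del/del mean was 3.01 ± 0.071 (SD, n = 4) and the fl/fl mean 2.88 ± 0.076 (SD, n = 5), a difference of 0.13. Serpinb5, which does not inhibit proteases and is known as an epithelial tumour suppressor, stood at 0.46, 0.59, 1.46 and 0.76 log2 RPM in del/del and at 1.02, 0.73, 0.71, 0.73 and 0.98 in fl/fl, in the same order. Its groups overlap throughout, and it had a log2 fold change of -0.02 (SE 0.236, limma adjusted p = 0.999), of either sign over the alternatives.

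The other expressed single members described here did not pass. Serpini1, or neuroserpin, which neurons secrete to restrain tissue plasminogen activator, stood at 2.08, 1.67, 2.06 and 1.92 log2 RPM in del/del and at 1.86, 2.39, 2.25, 2.01 and 1.97 in fl/fl. Its groups overlap, with a log2 fold change of -0.18 (SE 0.152, limma adjusted p = 0.991).

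Serpine2, the glia-derived nexin that blocks thrombin and plasminogen activators, stood at 6.65, 6.23, 6.36 and 6.19 log2 RPM in del/del and at 6.18, 7.63, 6.23, 6.16 and 6.27 in fl/fl. Serpinh1, a chaperone of the endoplasmic reticulum that folds collagen and inhibits no protease, stood at 6.36, 5.96, 6.05 and 6.01 log2 RPM in del/del and at 6.00, 7.10, 5.88, 5.93 and 6.02 in fl/fl. In both genes the shallow library female fl/fl 2 stood far above all others, which lay close together. Their log2 fold changes were -0.19 (SE 0.284, limma adjusted p = 0.997) and -0.13 (SE 0.239, limma adjusted p = 0.997). Without female fl/fl 2 both turned to 0.13.

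Most serpin rows below the filter leaned to del/del. Of the 35 such rows with reads, 34 had a higher mean RPM in del/del than in fl/fl (97.1%), where 65.8% of all 8277 such rows did. These rows are not replicates, since all were read from the same 9 libraries. Some rest on very few reads, such as Serpinb13 and Serpina3f on 1 and Serpina12 on 2. Others overlap, such as Serpina1b with Serpina1d and Serpina3m with Serpina3k. The count is therefore a description and not a test of the family. Detection also differed between libraries. Rows of the whole table without a read numbered 7778 in female fl/fl 2, 6698 in female fl/fl 1 and 6611 in male fl/fl 7. They numbered 6764 in female del/del 1 and 5513 to 5967 in the remaining libraries. The part of this in the lean was not tested. The lean was present in both read classes: among rows with up to 100 reads the counts were 26 of 27 serpins and 64.3% of all rows, and among rows with more than 100 reads 8 of 8 and 69.0%. Groups without overlap were those of Serpinb11, Serpinf2 and Serpinb9, 3 of 35, all higher in del/del, where 4.22% of all such rows were.

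Serpinb11, an epithelial serpin that in mouse inhibits trypsin-like proteases, came closest to the filter. It had 159, 137, 94 and 92 reads in del/del (female 1, 2 and 3, male 5) and 33, 1, 35, 48 and 12 reads in fl/fl (female 1, 2 and 3, male 5 and 7). Only 2 del/del libraries reached 1 RPM, the means were 1.33 RPM in del/del and 0.241 RPM in fl/fl, and the groups did not overlap. Fitted without the filter, where 1.23% of all 22321 rows were called, it had a log2 fold change of 2.82 (SE 0.677, limma adjusted p = 0.0931). When lines were also paired as blocks, where 3.56% were called, it passed at 2.61 (limma adjusted p = 0.0147). Serpinb11 and Serpinb8 are separated on chromosome 1 by Serpinb7 and Serpinb2, which had 6 and 13 reads.

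Serpinb1a opens the chromosome 13 array. It had 73, 46, 42 and 108 reads in del/del and 55, 3, 15, 22 and 14 reads in fl/fl, in the same order. Female fl/fl 1 lay within the del/del range, and the means were 0.727 RPM in del/del and 0.213 RPM in fl/fl. Without the filter it had a log2 fold change of 1.88 (SE 0.517, limma adjusted p = 0.155), and with lines also paired as blocks it passed at 1.71 (limma adjusted p = 0.0150). Serpinb9 had 14, 18, 24 and 20 reads in del/del and 13, 2, 8, 3 and 15 reads in fl/fl, which per M reads do not overlap, with 1.34 (SE 0.500, limma adjusted p = 0.393). The window of Serpinb9 holds 1 interferon-stimulated response element. So do a window of Serpinb6a in the same array, which had a log2 fold change of 0.10 and did not pass, and that of Serpina3a, with 5 reads.

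Clade A rows below the filter held 4, 34, 49 and 54 reads in del/del and 2, 6, 13, 17 and 2 reads in fl/fl, summed over 14 rows. All 14 had a higher mean RPM in del/del, yet the summed RPM overlapped between groups, at 0.0540, 0.323, 0.495 and 0.530 in del/del and 0.0172, 0.249, 0.119, 0.162 and 0.0173 in fl/fl. The 3 libraries whose names lack the prefix RNA- (female del/del 1, female fl/fl 1 and male fl/fl 7) held the lowest sums. Among the 6 libraries with the prefix the sums of the 3 del/del libraries lay above those of the 3 fl/fl libraries. These genes resemble each other, with 79.3% of the 50-base words of Serpina1c and 57.6% of those of Serpina1a found in other genes, so single reads may be placed on the wrong member.

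The remaining single members stayed below the filter. Serpinf1, a neurotrophic factor that inhibits blood vessel growth, had 70, 114, 87 and 75 reads in del/del and 66, 10, 100, 76 and 91 in fl/fl, which overlap. Serping1, the inhibitor of complement C1, had 50, 33, 45 and 65 reads in del/del and 35, 5, 42, 29 and 19 in fl/fl. Per M reads female del/del 2 lay below female fl/fl 3, and without the filter Serping1 had a log2 fold change of 0.95 (SE 0.392, limma adjusted p = 0.482). Serpinf2, the main plasmin inhibitor, had 31, 36, 37 and 30 reads in del/del and 21, 1, 30, 29 and 29 in fl/fl, which per M reads do not overlap, with 1.14 (SE 0.562, limma adjusted p = 0.647). Serpinc1, or antithrombin, had 201 reads in all and Serpind1, or heparin cofactor, 183, and the row of Serpind1 lies inside that of Pi4ka, which had 84302 reads. Serpini2, a pancreatic serpin, had 2 reads.

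**Figure D3:**
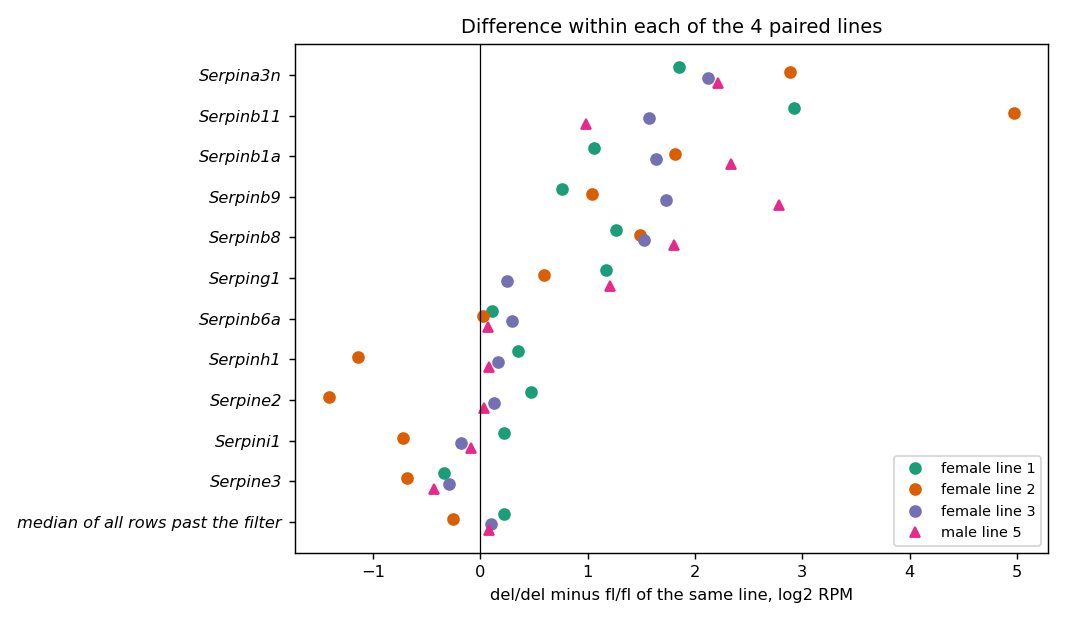
Difference in log2 RPM between the del/del and the fl/fl library of the same line for some of the serpins with over 100 reads. The median of all rows past the filter is at the foot. Serpina3n, Serpinb8, Serpinb11, Serpinb1a, Serpinb9, Serping1 and Serpinb6a are above 0 in 4 of 4 lines, Serpinb6a by 0.02 to 0.29. So are Serpinc1, Serpinf2 and Serpind1, which are not drawn. Serpine3 is below 0 in 4 of 4. The share of all rows with the same sign in 4 of 4 lines was not counted. Serpine2 and Serpinh1 are far below 0 in female line 2 alone.

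No difference between the sexes was detectable in this design. In females limma called 0 of the 9 rows (3 at an unadjusted p under 0.05), where 0.0142% of all rows were called; Serpina3n had 2.29 (SE 0.312, adjusted p = 0.0666) and Serpinb8 1.43 (SE 0.305, adjusted p = 0.160). With lines as blocks, which pairs the libraries that came from one culture, both rose in females (limma adjusted p = 0.000328 and 0.000617), where 1.96% of all rows were called. In the males, with 1 del/del library assumed to vary like the other groups, 0 of 9 were called (2 at an unadjusted p under 0.05) among 0 of all rows. There Serpina3n had 2.43 (limma adjusted p = 0.557) and Serpinb8 1.29, and with the block 2.21 (adjusted p = 0.0428) and 1.80 (adjusted p = 0.0246), where 0.349% were called. The male values with the block rest on the single pair of line 5. Those without it set male del/del 5 against male fl/fl 5 and 7. Both take their spread from the other groups, so they show no replicated male effect. The difference of the effect between the sexes, tested by limma, was -0.14 for Serpina3n (SE 0.563) and 0.14 for Serpinb8 (SE 0.549), and 0 of 9 passed (0 at an unadjusted p under 0.05).

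Rows other than serpins were read within the arrays and up to 250 kb from each end. On the side of the Serpina array away from Serpina3n, Ppp4r4, which encodes a regulatory subunit of protein phosphatase PP4, lies 2.84 kb from the first row. It stood at 3.24, 2.70 and 2.71 log2 RPM in female del/del 1, 2 and 3 and 2.93 in male del/del 5, against 0.62, 0.22 and 0.92 in female fl/fl 1, 2 and 3 and -0.07 and 0.82 in male fl/fl 5 and 7. Every del/del library lay above every fl/fl library, and Ppp4r4 rose 5.19-fold (2.38 on the log2 scale, SE 0.233, limma adjusted p = 0.00428). Ifi27l1, a gene of an interferon-induced family, lies 176 kb away. It stood at 3.22, 2.94, 2.79 and 3.40 log2 RPM in del/del and at 1.88, 0.66, 0.81, 1.39 and 1.14 in fl/fl. Its groups did not overlap either, and it rose 3.87-fold (1.95, SE 0.244, limma adjusted p = 0.00751).

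The other 2 expressed neighbours there, Otub2 and Ddx24, had -0.12 and 0.02, and the 21 array rows between Ppp4r4 and Serpina3n had 40 reads or fewer each. Around the Serpinb array of chromosome 1 limma called 0 of 3 expressed neighbours (1 at an unadjusted p under 0.05, and 0 by voom), with Bcl2, the apoptosis inhibitor, at 0.01 and Kdsr, of sphingolipid synthesis, at 0.29. Around and within that of chromosome 13 it called 0 of 9 (1 at an unadjusted p under 0.05, and 0 by voom), with a median log2 fold change of -0.04. These 9 include Nqo2, inside the Serpinb6a row, and Ripk1, which overlaps the end of that row. These counts compare with 1.55% of all rows called.

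**Figure D4:**
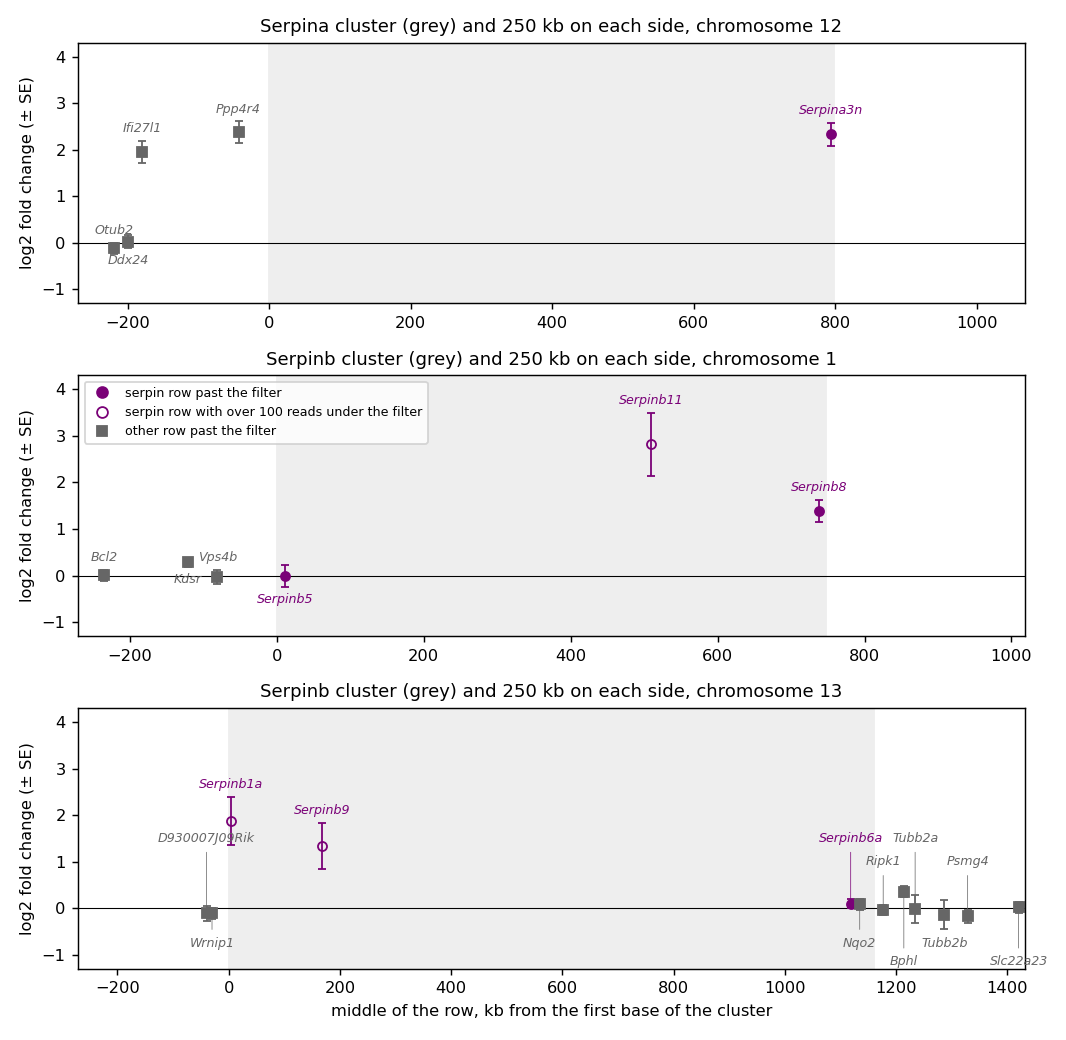
Log2 fold change (del/del over fl/fl, ± SE) of the expressed serpin rows (filled circles), serpin rows with over 100 reads below the filter, fitted without it (open circles), and other expressed rows (squares), against kb from the start of each array, shown in grey. At the Serpina array Serpina3n, Ppp4r4 and Ifi27l1 lie near 2 and Otub2 and Ddx24 near 0; around both Serpinb arrays the squares lie near 0.

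Proteases, receptors and cargo that serpins act on were read from a list of 57 genes, of which 55 were in the table and 32 were expressed. Of these 32, 2 rose and 0 fell, where 1.55% of all rows were called, with 21 above 0 and a median log2 fold change of 0.16. Sorl1, a sorting receptor of the LDL receptor family, stood at 3.14, 3.16, 2.93 and 3.16 log2 RPM in del/del and at 1.90, 1.02, 1.95, 1.32 and 2.42 in fl/fl, and rose 2.64-fold (1.40, SE 0.255, limma adjusted p = 0.0277). Casp1, the inflammatory caspase, stood at 1.11, 1.25, 0.90 and 1.14 log2 RPM in del/del and at -0.01, 0.22, 0.26, -0.34 and -0.08 in fl/fl, and rose 2.08-fold (1.06, SE 0.203, limma adjusted p = 0.0350). Neither gene's groups overlapped. Casp1 reached 0 log2 RPM in too few fl/fl libraries to pass the filter without the del/del libraries, where it is high. Its part in the count is therefore not independent of the filter. With lines as blocks 6 of 32 rose, where 3.99% of all rows were called: besides these, Casp8, the initiator caspase of death receptors (0.60 and limma adjusted p = 0.0837 without the block), the transmembrane protease gene St14 (0.90, 0.102), the cathepsin gene Ctsh (0.66, 0.0644) and the collagen gene Col4a2 (0.53, 0.325).

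The remaining partners did not pass. Among plasminogen activators and their receptor, Plat had -0.11, Plau 0.43 and Plaur 0.12, and among thrombin receptors and clotting starters F2r had -0.01, F2rl1 0.43 and F3 0.49. The receptor that clears serpin complexes, Lrp1, had 0.13 and its relative Lrp8 -0.08. Of the cathepsins Ctsb had -0.01 and Ctsl -0.04. Gzma and Gzmb, the granzymes, had no read in any library.

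Marker lists were set beside Serpina3n and Serpinb8. Of 24 expressed interferon response genes, among 30 listed, 12 rose by limma, where 1.45% of all rows rose, with a median of 0.96. Of these 12, Ifit1, Oasl2, Usp18, Irf7 and Ifi44 lay below 0 log2 RPM in every fl/fl library. They passed the filter through the del/del libraries alone, where they are high, so their part in the count is not independent of the filter. The 30 listed genes summed to 154 to 193 RPM in del/del and 109 to 127 RPM in fl/fl, without overlap. Of 12 astrocyte markers 3 rose (Gfap, Aqp4 and Slc1a2), with a summed level of 440 to 558 RPM in del/del and 358 to 633 RPM in fl/fl, which overlap. Of 8 expressed neuron markers 2 rose (Nefl and Nefm) and 4 were above 0, with a median of -0.08. The Nefl row lies inside the Nefm row, so these 2 calls share reads and are not separate. The list summed to 91.6 to 117 RPM in del/del and 57.8 to 63.7 RPM in fl/fl, without overlap, but with the shared reads counted in both rows. Nefm alone stood at 5.32 to 5.77 log2 RPM in del/del and 3.73 to 4.29 in fl/fl. Tubb3, Rbfox3 and Syp had -0.36, -0.50 and -0.30. Fibroblast and mesenchymal markers summed to 169 to 204 RPM in del/del and 104 to 151 RPM in fl/fl, with 4 of 4 expressed members above 0, 0 called by limma (2 at an unadjusted p under 0.05, and 0 by voom), and Lum without a read. Endothelial markers summed to 5.49 to 9.92 RPM in del/del and 3.57 to 6.81 RPM in fl/fl, which overlap. Liver plasma protein markers summed to 1.33 to 1.68 RPM in del/del and 0.746 to 1.49 RPM in fl/fl, which overlap, with Fgb without a read. The part of these lists in the serpin results was not tested. In the 6 libraries with the prefix alone, where 1.28% of all rows were called, Serpina3n had 2.41 (limma adjusted p = 0.020) and Serpinb8 1.60 (limma adjusted p = 0.0234), close to the values over all 9.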

How the data were processed

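RNA of 9 libraries of neural stem cells was sequenced. The authors deposited one table of log2 RPM per gene row; bcl2fastq, TopHat2 2.0.12 and edgeR 3.8.2 and the build mm10 stand in the submitters' processing notes, and the read counter is not given in the sources used here. Whole reads were recovered from the deposited log2 values, in which 0 reads were entered as 0.9 reads (tolerance 0.05 reads). In all of 1180 pairs of nested rows the outer row held at least as many reads as the inner one in every library, so spans were counted whatever the strand, and overlapping genes share reads.

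Rows of at least 0 log2 RPM in at least 3 libraries were kept (14044). limma 3.58.1 (R 4.3.3), with lmFit and a moderated two-sided test whose prior follows the mean level (eBayes, trend), was fitted to all of them with sex as a covariate over both sexes, or with 4 group means for females, males and their difference; p-values were adjusted by Benjamini-Hochberg over all rows with a threshold of 0.05. The fits were tested on simulated data. Replicates are lines, and del/del and fl/fl libraries of one number came from one line per the labels' protocols, so the numbers pair them. As a check, deviations from the group means correlated across genes at 0.868, 0.582 and 0.758 within female lines 1, 2 and 3, but also at 0.728 between del/del 2 and fl/fl 3 and 0.494 between del/del 3 and fl/fl 2, so this check does not separate lines 2 and 3. The 6 libraries of lines 2, 3 and 5 carry the name prefix RNA- and the other 3 do not; what the prefix stands for is not stated. Alternatives were median centring, quantile normalization, a pseudocount of 1 RPM, other filters, voom on the recovered reads, array weights, the line as a block, no sex term, the 6 prefixed libraries, a batch term and leaving out each library. The batch term was the name prefix, entered as a covariate. Depth was 24.1 M to 116.6 M reads, and floors of 3 reads cover counting error only.

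A tandem array is at least 3 rows of one clade with gaps under 500 kb. Named with values are members that passed, the 8 most abundant expressed members, the 3 largest changes per clade group, partner genes that passed or came next, and neighbours within 250 kb that passed; other members named were chosen after their values were seen. One expressed single member is not reported here, while counts and medians include it. The members and lists were chosen with earlier results of these data known. Promoter windows are RefSeq's (GRCm38.p6); protein sequences were not used here.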

Additional observations from a re-analysis of the deposited data

Results flagged for a closer look

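Within groups, 34 sets of values (del/del and fl/fl libraries of 17 serpin rows with over 100 reads) were searched for a library far from the rest, and 5 stood out, where chance gives about 1 in 20. All 5 were female fl/fl 2, the shallowest library. It was the highest of 5 fl/fl libraries for Serpine2, the thrombin inhibitor (7.63 log2 RPM, with 6.16 to 6.27 in the other 4), for Serpinh1, the collagen chaperone (7.10, with 5.88 to 6.02), and for Serpine3 (3.27, with 2.90 to 2.99). It was the lowest for Serpinf2, the plasmin inhibitor (-4.59, from 1 read), and for Serpind1, heparin cofactor (-4.74, from 0 reads entered as 0.9).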

How the results depend on the processing

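Serpina3n was called over both sexes in 20 of 21 alternatives (log2 fold change 1.58 to 2.48) and Serpinb8 in 15 of 21 (1.24 to 1.60); the cause of the lost calls was not tested. Members called over both sexes numbered 2, and 4 with no filter and the replicate block, which pairs libraries of a line, and 3 with median centring or array weights (Serpine3 added; 9.78% of all rows called with array weights), while quantile normalization called Serpina3n and Serpine3; leaving out 1 library gave 0 to 2 (0 without male del/del 5). With the block alone the count was also 2. In females the count was 0 as fitted, 1 with log2 of RPM plus 1, 2 with the replicate block, and 0 to 1 leaving out 1 library. No alternative called a difference between the sexes. Partners called numbered 2, but 0 after quantile normalization and 8 with array weights. They numbered 6 with the replicate block, 1 in the 6 prefixed libraries and 5 with a batch term. Leaving out 1 library gave 0 to 4 partners. The count was 0 without female del/del 1, 2 or 3, male del/del 5 or female fl/fl 3. It was 1 without male fl/fl 5 and 4 without male fl/fl 7. The share of all rows called is not given here for the batch term or the fits without 1 library. Nor is it given for log2 of RPM plus 1 in females, so those counts cannot be set against it. Signs turned for Serpine2 (0.0213 with array weights, and -0.34 to 0.13 leaving out 1 library), Serpinh1 (0.0345, and -0.26 to 0.13) and Serpinb5 (0.0191 with the replicate block, 0.21 in the prefixed libraries, and -0.22 to 0.10 leaving out 1 library); without female fl/fl 2 the first 2 were 0.13. The filter hides rows of few reads: in female fl/fl 2, at 24.1 M reads, 3 reads are 0.124 RPM.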
